A study of Mus musculus with 2 samples.

Results

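Purinergic signalling in bone marrow-derived macrophages was described through 10 genes: the ion channel genes P2rx4 and P2rx7, the nucleotide receptor genes P2ry2, P2ry6, P2ry12, P2ry13 and P2ry14, the adenosine receptor genes Adora2a and Adora2b, and Entpd1, which encodes the ectonucleotidase CD39. They were taken by name from the 22060 genes of the deposited count table, and all 10 were found. A gene is called measured when the 2 libraries together held 20 or more of its counts, which 11199 genes and all 10 members did. The T403A library came from cells with STAT2 T403A, in which a threonine of STAT2, a transcription factor of interferon signalling, is replaced by alanine. The WT library came from wild-type cells. Both came from marrow of C57BL/6 mice aged 8 weeks, grown with the growth factor M-CSF for 7 days and left untreated (0 h). The sources used here do not give the sex of the mice, the number of animals behind a library or how the allele was made.

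The total count was 18658381 in the T403A library and 16033032 in the WT library. With 1 library per genotype there is no replicate check and no p-value, and every difference below is between these 2 libraries. Levels are given as CPM, the count of a gene relative to the TMM-scaled library total. Each T403A to WT ratio carries an exact 95% counting interval, which leaves out variation between animals and cultures. Genes are called higher or lower where the difference was 1.5-fold or more and its interval excluded 1. The limit that a count of 0 leaves is 3 counts, or 0.150 CPM in T403A and 0.200 CPM in WT. Stat2 itself was at 84.4 CPM in T403A and 376 CPM in WT. The macrophage identity of the cells was checked with 15 marker genes, of which all 15 were measured. Csf1r, the receptor for M-CSF, had 109742 counts in T403A (5503 CPM) and 107205 counts in WT (7146 CPM), a ratio of 0.770 (0.764 to 0.777). By the rule above, 8 of the 15 markers were lower and 1 was higher in T403A, where 10.8% of all measured genes were lower and 13.5% higher. The median log2 ratio was -0.87 over these markers and 0.01 over all measured genes.

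Cells release ATP and other nucleotides when they are damaged, stressed or activated, and macrophages read them through P2 receptors. P2X receptors are ion channels opened by ATP, and P2Y receptors are coupled to G proteins and respond to ATP, ADP, UTP, UDP or UDP-sugars. CD39 on the cell surface trims ATP and ADP to AMP, CD73 (Nt5e) turns AMP into adenosine, and adenosine acts through its own receptors, which in macrophages dampen inflammatory output.

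The members that passed the 1.5-fold rule went in both directions. The adenosine receptor genes Adora2a and Adora2b were 14.6-fold and 10.1-fold lower in T403A. Entpd1 was 2.11-fold higher and P2ry12 1.94-fold higher in T403A. The other 6 members were all within 1.5-fold. Thus 2 of 10 members were higher and 2 of 10 lower, where 13.5% of all measured genes were higher and 10.8% lower by the same rule. The median log2 ratio was -0.07 over the members and 0.01 over all measured genes with TMM, and 0.13 and 0.20 with scaling by total count. Counts this small beside that background are not a result about the members as a group. The members summed to 901 CPM in T403A and 967 CPM in WT, from 17972 counts in T403A and 14509 in WT. Relative to the total count of each library this sum was higher in T403A, so its direction depends on the scaling. In a bulk library, fewer cells that express a gene and less of its RNA per cell cannot be told apart.

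**Figure D1:**
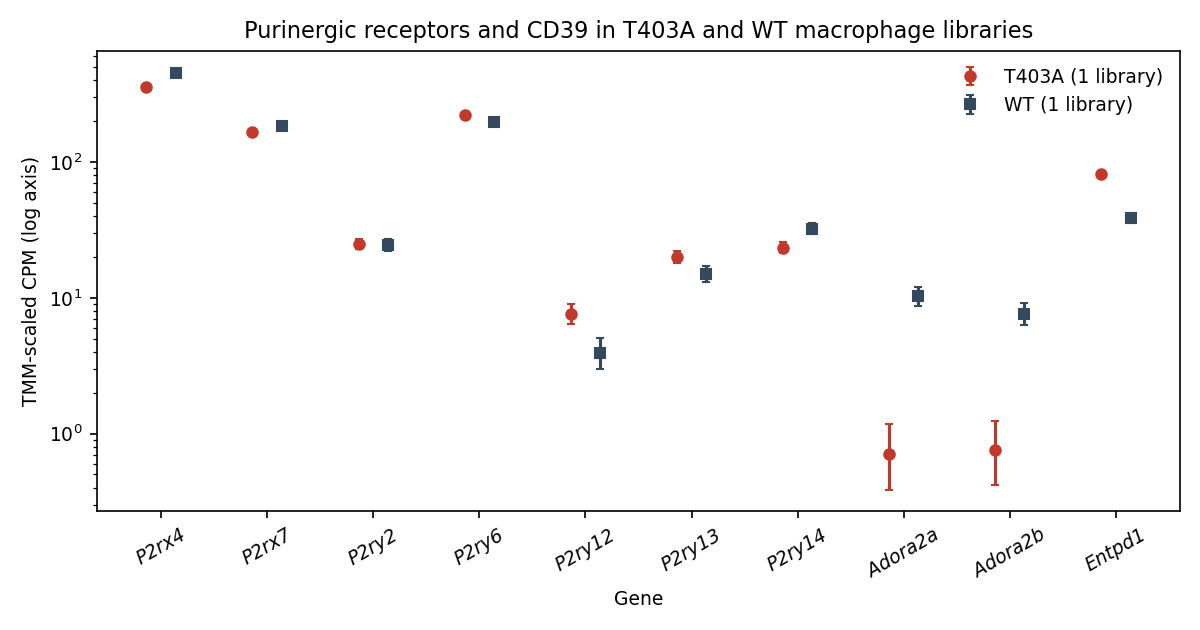
Level of each of the 10 genes in TMM-scaled CPM (log axis) in the T403A library (circles) and the WT library (squares), 1 library each, with exact 95% counting intervals as bars. Adora2a and Adora2b lie at 0.702 and 0.752 CPM in T403A, against 10.3 and 7.60 CPM in WT, and the intervals of both genes are far apart.

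Adora2a and Adora2b encode the adenosine receptors that couple to the stimulatory G protein and raise cyclic AMP. Adora2a has the higher affinity for adenosine, and Adora2b responds to the high concentrations found in hypoxic or inflamed tissue. Adora2a (ENSMUSG00000020178, protein-coding, GRCm38 chromosome 10 from 75316877 to 75334784, plus strand) had 14 counts in T403A (0.702 CPM) and 154 counts in WT (10.3 CPM). The ratio was 14.6-fold lower in T403A, with an interval of 8.45 to 27.4. Of all measured genes, only 0.705% had a lower log2 ratio than Adora2a.

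Adora2b (ENSMUSG00000018500, protein-coding, chromosome 11 from 62248984 to 62266453, plus strand) had 15 counts in T403A (0.752 CPM) and 114 counts in WT (7.60 CPM). It was 10.1-fold lower in T403A, with an interval of 5.87 to 18.6, and 1.07% of measured genes had a lower log2 ratio. The receptors are encoded on different chromosomes, yet their intervals overlapped, and the relative count of Adora2a to Adora2b was 0.933 in T403A and 1.35 in WT. The ratio of these relative counts was 0.691 (0.296 to 1.61), so a difference between the receptors was not detectable at this depth. Taken as a pair they had 29 counts in T403A and 268 in WT, a 12.3-fold difference. In T403A both receptors remained above the limit of 3 counts.

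The proximal promoters of the members that passed the rule are shown, because these are the genes whose transcripts differed. Each run gives the 250 bases before the RefSeq transcription start (GRCm38.p6), read 5′ to 3′ on the strand of the gene. The Adora2b window is chr11:62248734-62248983 on the plus strand, the Entpd1 window of its most upstream start is chr19:40612116-40612365 on the plus strand, and the P2ry12 window is chr3:59262986-59263235 on the minus strand. Adora2a and P2ry6 have no sequence shown. Capitals mark a match to a searched motif.
Adora2b: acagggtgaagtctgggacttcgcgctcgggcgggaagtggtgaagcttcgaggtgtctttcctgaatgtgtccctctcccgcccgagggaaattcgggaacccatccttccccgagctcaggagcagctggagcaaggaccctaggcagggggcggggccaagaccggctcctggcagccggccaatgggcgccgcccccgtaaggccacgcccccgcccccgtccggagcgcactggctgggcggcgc
Entpd1: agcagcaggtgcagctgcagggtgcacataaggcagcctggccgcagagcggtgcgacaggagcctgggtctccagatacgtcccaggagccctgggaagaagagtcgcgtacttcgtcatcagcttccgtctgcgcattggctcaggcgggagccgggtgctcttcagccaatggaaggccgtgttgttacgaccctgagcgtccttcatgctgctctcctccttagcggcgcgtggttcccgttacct
P2ry12: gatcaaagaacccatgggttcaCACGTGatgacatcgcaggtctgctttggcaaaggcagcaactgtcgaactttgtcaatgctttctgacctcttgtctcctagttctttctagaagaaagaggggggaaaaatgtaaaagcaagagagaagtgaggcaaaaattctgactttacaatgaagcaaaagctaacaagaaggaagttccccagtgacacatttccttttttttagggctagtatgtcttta
The Adora2b window was 69.6% G or C, the Entpd1 window 62.4% and the P2ry12 window 41.6%, with a median of 52.4% over all windows of the table. The searched motifs were GAAANNGAA of the interferon-stimulated response element, TTCNNNGAA of the gamma-activated site bound by STAT dimers, TGACGTCA of the cyclic AMP response element, and ACGTG of the hypoxia response element. The first pair of motifs can overlap each other. Both strands of 14 windows of 300 bases (250 before and 50 after the start, some of them overlapping) were searched for the 8 members in the table. None of the 14 windows held any of the first 3 motifs, which occur in 8.56%, 8.30% and 1.79% of all 32851 windows. The ACGTG motif occurs in 19.6% of all windows. Among the members it was found in the P2ry12 window, on both strands within the palindrome in capitals, and at the same site in both P2ry2 windows, which overlap. No match says only that these letters are not in these windows.

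Entpd1 (ENSMUSG00000048120, protein-coding, chromosome 19 from 40612366 to 40741602, plus strand) had 1627 counts in T403A (81.6 CPM) and 580 counts in WT (38.7 CPM). It was 2.11-fold higher in T403A, with an interval of 1.92 to 2.32, and 739th from the top of the measured genes. CD39 removes the ATP and ADP that activate several P2 receptors. Its gene had the highest ratio of the 10 members, and the counting intervals of the libraries did not overlap.

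**Figure D2:**
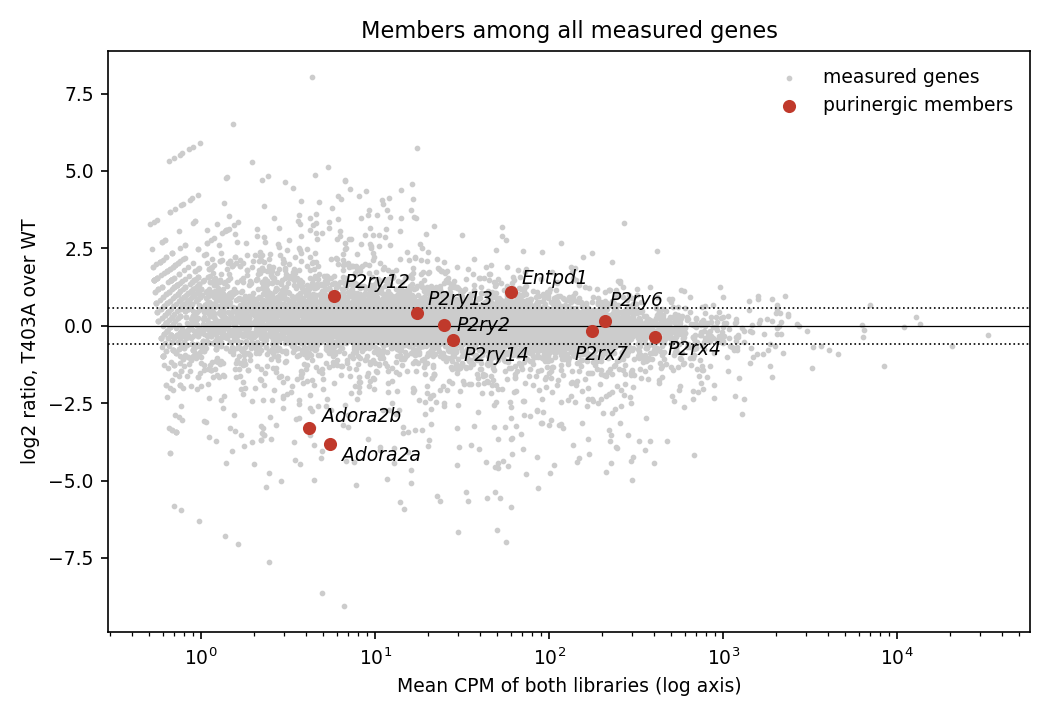
The log2 ratio of T403A over WT against the mean CPM of both libraries (log axis) for the 11199 measured genes (grey) and the 10 members (red). Dotted lines mark 1.5-fold. Adora2a (-3.82) and Adora2b (-3.30) lie below the bulk of genes at their level, Entpd1 (1.08) and P2ry12 (0.95) lie above the upper line, and the other 6 members lie between the lines.

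The ATP-gated channels were abundant and close to equal. P2rx4 encodes a channel of high ATP affinity found on lysosomes and at the surface (ENSMUSG00000029470, chromosome 5, 122707544 to 122729738, plus strand). It had 7082 counts in T403A (355 CPM) and 6792 counts in WT (453 CPM), and its ratio was 0.784 (0.759 to 0.811). P2rx7 encodes the channel of low ATP affinity whose opening lets potassium out of the cell and triggers the NLRP3 inflammasome (ENSMUSG00000029468, chromosome 5, 122643911 to 122691432, plus strand). It had 3302 counts in T403A (166 CPM) and 2773 counts in WT (185 CPM), and its ratio was 0.896 (0.851 to 0.943). Both channels were thus lower in T403A by less than the 1.5-fold used here, although their counting intervals excluded 1. Under scaling by total count the ratio of P2rx7 became 1.02 (0.973 to 1.08), so its direction depends on the scaling.

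The P2Y receptors for pyrimidine nucleotides were also close to equal. P2ry6 encodes the receptor for UDP, linked in microglia and macrophages to phagocytosis and chemokine release (ENSMUSG00000048779, chromosome 7, 100937630 to 100974649, minus strand). It had 4417 counts in T403A (222 CPM) and 2959 counts in WT (197 CPM), a ratio of 1.12 (1.07 to 1.18). P2ry2 encodes the receptor for ATP and UTP through which phagocytes are drawn to apoptotic cells (ENSMUSG00000032860, chromosome 7, 100996568 to 101012866, minus strand). It had 499 counts in T403A (25.0 CPM) and 368 counts in WT (24.5 CPM), and with TMM its ratio of 1.02 (0.890 to 1.17) did not differ beyond counting error. Under scaling by total count the ratio of P2ry2 was 1.17, with an interval of 1.02 to 1.34 that excluded 1.

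The 3 receptor genes that couple to inhibitory G proteins, P2ry12, P2ry13 and P2ry14, lie close together on the minus strand of chromosome 3, and their ratios spread from lower to higher in T403A. P2ry12 encodes the ADP receptor of platelets and resting microglia (ENSMUSG00000036353, 59216272 to 59262871). It had 152 counts in T403A (7.62 CPM) and 59 counts in WT (3.93 CPM), a ratio of 1.94 (1.43 to 2.66). P2ry13 encodes another ADP receptor (ENSMUSG00000036362, 59207892 to 59210882). It had 397 counts in T403A (19.9 CPM) and 225 counts in WT (14.998 CPM), a ratio of 1.33 (1.12 to 1.57), which did not reach 1.5-fold. P2ry14 encodes the receptor for UDP-glucose and related UDP-sugars (ENSMUSG00000036381, 59113855 to 59153618). It had 467 counts in T403A (23.4 CPM) and 485 counts in WT (32.3 CPM), a ratio of 0.724 (0.637 to 0.824).

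Relative counts within a cluster do not depend on how the libraries are scaled. Per P2ry14 count, the T403A library held 0.325 counts of P2ry12, against 0.122 in the WT library, a 2.68-fold higher relative count in T403A (1.91 to 3.77). For P2ry13 the same relative counts were 0.850 in T403A and 0.464 in WT, 1.83-fold higher in T403A (1.48 to 2.27). Between the ADP receptors, P2ry12 per P2ry13 count was 0.383 in T403A and 0.262 in WT, a ratio of 1.46 (1.03 to 2.10). In this cluster the gene of the UDP-sugar receptor was therefore shifted against both ADP receptor genes by more than counting error. P2rx7 per P2rx4 count was 0.466 in T403A and 0.408 in WT, a ratio of 1.14 (1.07 to 1.21). P2ry6 per P2ry2 count was 8.85 in T403A and 8.04 in WT, a ratio of 1.10 (0.952 to 1.27), within counting error.

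**Figure D3:**
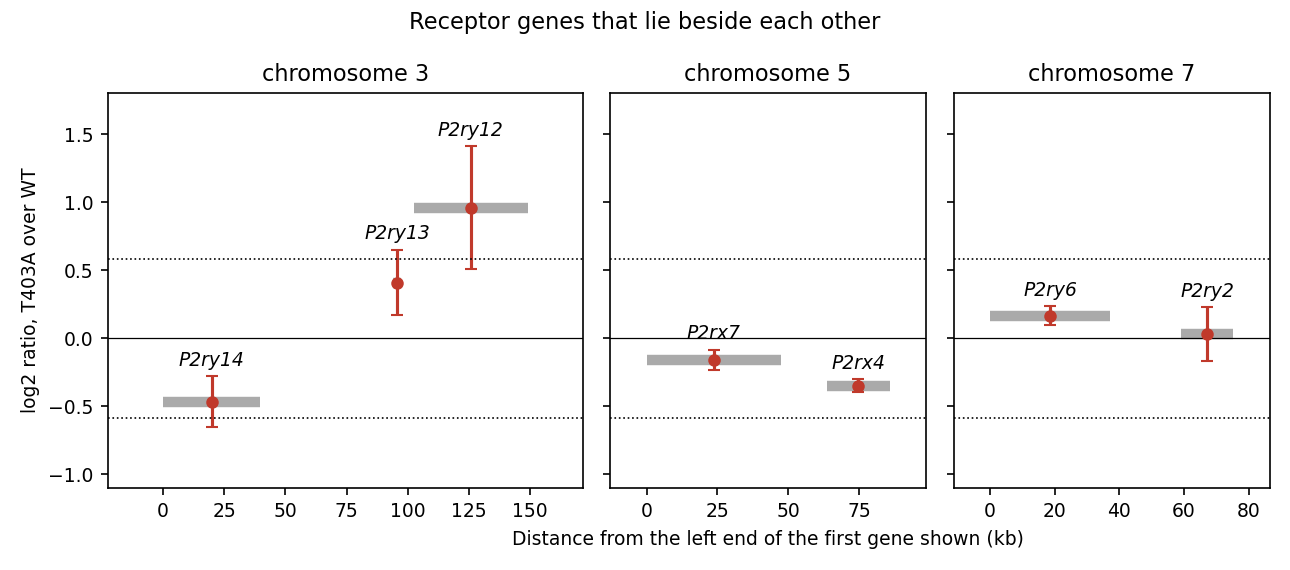
The log2 ratio of T403A over WT (red points, bars are exact 95% counting intervals) for the members that lie beside each other on chromosomes 3, 5 and 7. The grey bar is the extent of the gene, as distance in kb from the left end of the first gene shown, and dotted lines mark 1.5-fold. On chromosome 3 the ratios run from 0.724 for P2ry14 to 1.94 for P2ry12, and the pairs on chromosomes 5 and 7 lie between the dotted lines.

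The whole chromosome 3 cluster lies inside the gene Med12l, which runs on the opposite strand. Med12l had 17 counts in T403A and 14 in WT, and its exons overlapped those of P2ry12 by 9 bases and those of P2ry13 and P2ry14 not at all. The orphan receptor gene Gpr171, beside P2ry14, had 1 count in each library. Igsf10, beyond P2ry12, had 1 count in T403A and 0 in WT. The nearest coding neighbours of Adora2a, Specc1l and Gucd1, were within 1.5-fold, at 109 and 32.2 CPM in T403A against 134 and 38.6 CPM in WT. Beside Adora2b, Specc1 was at 176 CPM in T403A and 164 CPM in WT. Zswim7, which ends 770 bases from Adora2b on the opposite strand, had 24 counts in T403A and 52 counts in WT, 2.88-fold lower in T403A (interval 1.74 to 4.89). The neighbours of Entpd1 were Tctn3, at 15.7 CPM in T403A and 12.3 CPM in WT, and Cc2d2b, with 4 counts in T403A and 2 in WT.

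Of the outer neighbours of the chromosome 5 and 7 pairs, Ift81 and Fchsd2 passed the rule. Ift81, beside P2rx7, had 105 counts in T403A and 31 in WT, 2.55-fold higher in T403A (1.69 to 3.94). Camkk2, beside P2rx4, was at 183 CPM in T403A and 131 CPM in WT, a ratio of 1.40. Fchsd2, beside P2ry2, was at 62.9 CPM in T403A and 31.7 CPM in WT, 1.99-fold higher in T403A (1.79 to 2.21). Arhgef17, beside P2ry6, had 10 counts in T403A and 4 in WT, too few to compare.

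Per gene length, the order of the members was similar at the top and different at the bottom. Levels in TPM divide counts by gene length and are scaled to the sum of each library without TMM, so they are given for the order of genes within a library and not for the difference between libraries. They put P2ry6 first at 278 TPM in T403A and 206 TPM in WT. P2rx4 came second, at 183 TPM in T403A and 194 TPM in WT, and in WT its interval overlapped that of P2ry6. P2rx7 followed, at 101 TPM in T403A and 93.4 TPM in WT. Entpd1 was next in both, but stood clear of the next gene in T403A at 53.1 TPM, whereas at 20.9 TPM in WT its interval overlapped that of P2ry2.

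P2ry13 and P2ry2 took the next places, at 28.6 and 23.1 TPM in T403A and at 17.9 and 18.8 TPM in WT, where their intervals overlapped. P2ry12 was at 10.9 TPM in T403A, ahead of P2ry14 at 7.69 TPM, and in WT it was last at 4.66 TPM, behind P2ry14 at 8.82 TPM. The T403A order of this pair rests on the deposited lengths, 2546 bases for P2ry12 and 11059 bases for P2ry14. By counts P2ry14 was ahead in T403A, with 467 against 152 for P2ry12. Adora2b and Adora2a were last in T403A, at 1.48 and 0.832 TPM, and their intervals overlapped. In WT they stood ahead of P2ry14, at 12.4 and 10.1 TPM, and the interval of Adora2a overlapped that of P2ry14. The adenosine receptors made up 0.336% of the summed TPM of the members in T403A and 3.84% in WT. CD39 made up 7.71% in T403A and 3.56% in WT, and the P2X channels 41.3% in T403A and 49.0% in WT.

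Of 12 further receptor genes for nucleotides or adenosine, or named with them, 3 were measured. P2ry1, an ADP receptor that couples to phospholipase C, had 212 counts in T403A (10.6 CPM) and 36 counts in WT (2.40 CPM). It was 4.43-fold higher in T403A (3.10 to 6.50), with the limit that an antisense gene overlaps 992 bases of its exons. P2ry10b, named for its relation to P2Y receptors, was at 23.7 CPM in T403A and 28.6 CPM in WT. Adora3, which encodes an adenosine receptor coupled to inhibitory G proteins, had 24 counts in T403A and 12 in WT, a ratio of 1.505 whose interval of 0.724 to 3.30 included 1. Its exons overlap those of Tmigd3 on the same strand. Adora1 had 1 count in T403A and 0 in WT. Among the other P2X genes none was measured, and the largest was P2rx1, the ATP channel of platelets, with 16 counts in T403A and 3 in WT.

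Enzymes that act on nucleotides and adenosine went both ways. Of 24 listed genes 15 were measured, 4 were higher and 5 lower in T403A, and the median log2 ratio was -0.03 (0.16 with scaling by total count). Over all measured genes, 13.5% were higher and 10.8% lower. Nt5e, which encodes CD73, the enzyme that makes adenosine from the AMP left by CD39, had 2 counts in T403A (0.100 CPM) and 20 counts in WT (1.33 CPM). It was 13.3-fold lower in T403A, with a wide interval of 3.22 to 117, and the T403A count is below the limit of 3 counts. The relative count of Entpd1 to Nt5e was 814 in T403A and 29.0 in WT, a ratio of 28.1 (6.77 to 248). Nt5e therefore differed from Entpd1 in the opposite direction.

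Cd38, which encodes an ectoenzyme that consumes NAD and so feeds an alternative route to adenosine, had 10 counts in T403A (0.501 CPM) and 409 counts in WT (27.3 CPM). It was 54.4-fold lower in T403A (29.3 to 114). Its relative Bst1 was 2.78-fold lower in T403A. Enpp1, an ectoenzyme that splits ATP to AMP and pyrophosphate, was 5.09-fold higher in T403A (3.75 to 7.05), at 16.3 CPM in T403A and 3.20 CPM in WT. Enpp4, a phosphodiesterase of the same family, was 4.999-fold lower in T403A (4.14 to 6.08), at 6.92 CPM in T403A and 34.6 CPM in WT.

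Inside the cell, Adk, the kinase that returns adenosine to AMP, was 1.93-fold higher in T403A (1.66 to 2.25), at 30.2 CPM in T403A and 15.7 CPM in WT. The AMP deaminase genes Ampd2 and Ampd3 were 1.81-fold and 1.69-fold higher in T403A, with the limit that both overlap a gene on the opposite strand. Pnp, which splits inosine and guanosine, was 3.71-fold lower in T403A (3.25 to 4.24), where its copy Pnp2 and an overlapping gene model can share its reads. Ada, which turns adenosine into inosine, did not differ beyond counting error, at 2.96 CPM in T403A and 3.07 CPM in WT. Of the intracellular relatives of CD39, those that were measured were within 1.5-fold: Entpd5 was at 32.6 CPM in T403A and 30.4 CPM in WT, Entpd6 at 8.17 CPM in T403A and 8.33 CPM in WT, and Entpd7 at 26.7 CPM in T403A and 29.8 CPM in WT. Entpd4 had 0 counts in T403A and 1 in WT, and its copy Entpd4b, which is not in the list and can share its reads, had 15 counts in T403A and 7 in WT.

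Of 17 genes of ATP release and adenosine transport, 12 were measured, 2 were higher and 2 lower in T403A, and the median log2 ratio was -0.14 (0.06 with scaling by total count). Over all measured genes, 13.5% were higher and 10.8% lower. The listed genes that were higher act on ATP release. Panx1, the channel through which ATP leaves the cell, was at 94.1 CPM in T403A and 40.4 CPM in WT, 2.33-fold higher in T403A (2.12 to 2.56). Slc17a9, the transporter that loads ATP into vesicles, was at 13.5 CPM in T403A and 6.13 CPM in WT, 2.21-fold higher in T403A (1.74 to 2.83). Slc28a2, a concentrative nucleoside transporter, was at 19.96 CPM in T403A and 50.6 CPM in WT, 2.53-fold lower in T403A (2.24 to 2.87). Calhm6 was at 3.86 CPM in T403A and 7.60 CPM in WT, 1.97-fold lower in T403A (1.46 to 2.66). The equilibrative transporters were within 1.5-fold, with Slc29a1 at 32.0 CPM in T403A and 26.8 CPM in WT and Slc29a3, the most abundant of the list, at 112 CPM in T403A and 135 CPM in WT.

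**Figure D4:**
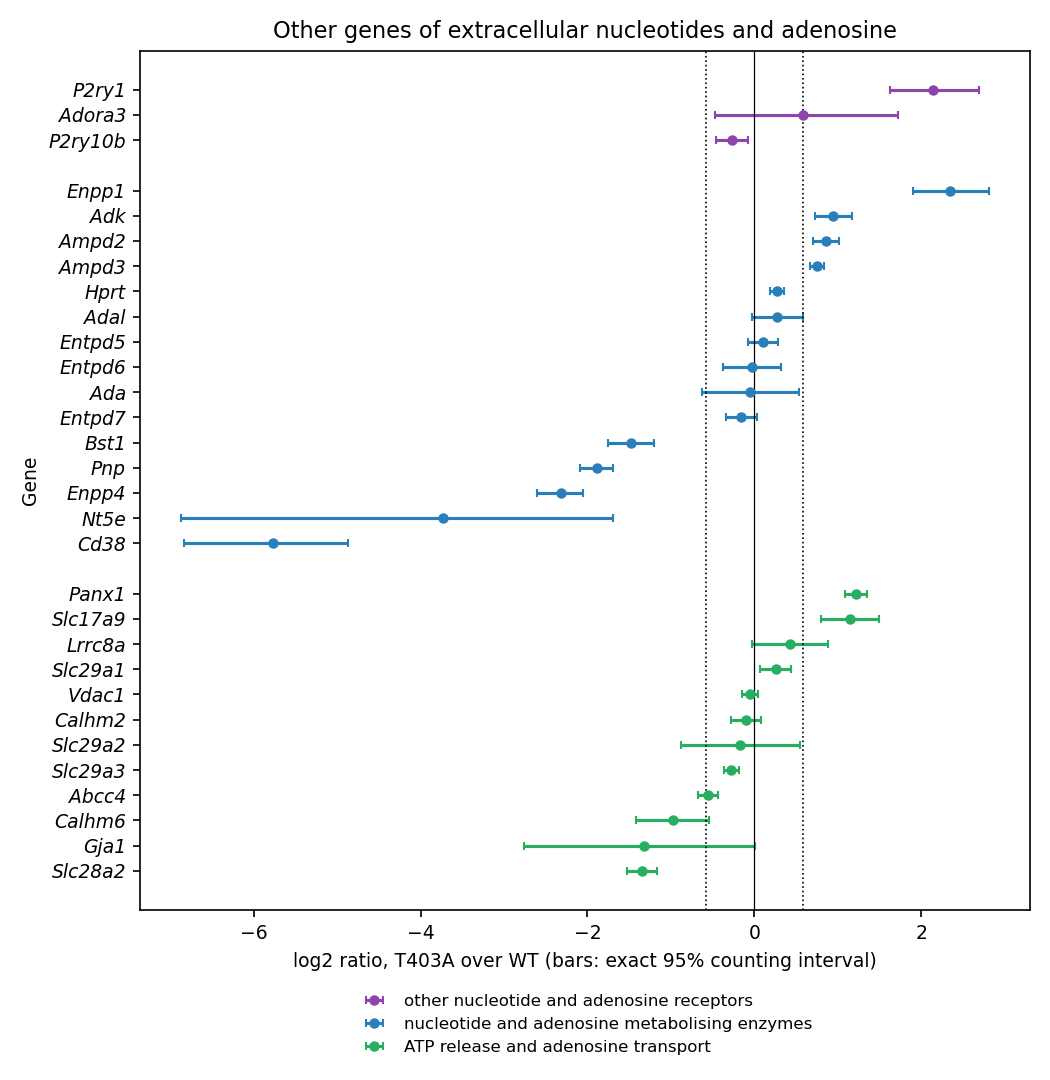
The log2 ratio of T403A over WT with exact 95% counting intervals for the measured genes of 3 lists: other receptors (purple), nucleotide and adenosine enzymes (blue), and ATP release and adenosine transport (green). Dotted lines mark 1.5-fold. Enpp1, P2ry1, Panx1, Slc17a9, Adk, Ampd2, Ampd3 and Adora3 lie to the right of the dotted lines. Cd38, Nt5e, Enpp4, Pnp, Bst1, Slc28a2, Gja1 and Calhm6 lie to the left. The intervals of Adora3 and Gja1 include 1, so these genes do not pass the rule.

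The G proteins and effectors behind these receptors were mostly within 1.5-fold. Of 27 measured genes of 30 listed, 3 were higher and 2 lower in T403A and 22 were neither, with a median log2 ratio of -0.08. Over all measured genes, 13.5% were higher and 10.8% lower. With scaling by total count 5 genes of the list were higher and 0 lower, and its median was 0.12. Under that scaling 20.4% of all measured genes were higher and 7.95% lower. Gnai2, the inhibitory G protein subunit used by P2ry12, P2ry13 and P2ry14, was at 795 CPM in T403A and 893 CPM in WT. The higher genes were Gna12 (1.85-fold), Gng2 (1.55-fold) and Adcy3 (1.71-fold), all with an overlapping gene on the opposite strand. The lower ones were Gng5 (1.70-fold) and Pik3r5 (1.51-fold), a regulatory subunit of the phosphoinositide kinase used by G protein-coupled receptors.

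With TMM, genes of cyclic AMP signalling, the pathway below Adora2a and Adora2b, were more often lower than higher in T403A. Of 20 measured genes of 24 listed, 6 were lower, 1 was higher and 13 were neither. Of all measured genes, 10.8% were lower and 13.5% higher. The median log2 ratio of the list was -0.14 (0.05 with scaling by total count). Thbs1, a secreted matrix protein, was at 27.03 CPM in T403A and 560 CPM in WT, 20.7-fold lower in T403A (19.0 to 22.6). Nr4a2, an immediate early nuclear receptor, had 5 counts in T403A and 55 in WT, 14.6-fold lower in T403A (5.90 to 46.8). Pde3b, a phosphodiesterase that breaks down cyclic AMP, was 7.19-fold lower in T403A (5.49 to 9.54), whereas Pde4a was 1.61-fold higher. The kinase subunits that carry the signal were within 1.5-fold, with Prkaca at 60.2 CPM in T403A and 57.1 CPM in WT and Prkar1a at 289 CPM in T403A and 381 CPM in WT. The factor gene Creb1 was at 91.8 CPM in T403A and 94.9 CPM in WT. Crem, at 7.02 CPM in T403A and 7.07 CPM in WT, and Per1, at 34.1 CPM in T403A and 35.6 CPM in WT, did not differ beyond counting error. Whether the lower genes of this list are tied to Adora2a and Adora2b was not tested. Under scaling by total count the split of this list was 4 higher and 5 lower, where 20.4% of all measured genes were higher and 7.95% lower.

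Among 19 genes tied to P2X7 and P2X4 signalling, all of them measured, none was higher and 7 were lower in T403A, where 13.5% of all measured genes were higher and 10.8% lower. The median log2 ratio was -0.37 (-0.18 with scaling by total count). The inflammasome machinery was within 1.5-fold: Nlrp3 was at 170 CPM in T403A and 239 CPM in WT, Casp1 at 103 CPM in T403A and 113 CPM in WT, and the pore gene Gsdmd at 147 CPM in T403A and 176 CPM in WT. The interleukin-1 genes were lower. Il1b was at 4.46 CPM in T403A and 97.1 CPM in WT, 21.7-fold lower in T403A (17.5 to 27.2). Il1a had 2 counts in T403A and 69 in WT, 45.9-fold lower in T403A with a wide interval of 12.2 to 386, and the T403A count is below the limit of 3 counts. Exons of both overlap an antisense or opposite-strand transcript. Tmem176a, which encodes an intracellular cation channel, was 3.03-fold lower in T403A (2.90 to 3.16), with a partner gene overlapping on the opposite strand. Adam17, the sheddase that P2X7 activates, was at 666 CPM in T403A and 823 CPM in WT.

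Markers of other cells that carry these receptors were examined beside them. P2ry12, P2ry1 and P2rx1 are platelet receptors. Of 11 megakaryocyte and platelet genes, Gp1bb and Gp9 had 0 counts in both libraries, and the list summed to 23.97 CPM in T403A and 42.7 CPM in WT. Pf4 alone gave 4.71 CPM of this sum in T403A and 33.8 CPM in WT, so the direction of the sum rests on Pf4. Within the list Itgb3 was 11.3-fold and Treml1 1.76-fold higher in T403A, and Pf4 and Ppbp were 7.17-fold and 3.84-fold lower. Gp1ba, with 35 counts in T403A and 31 in WT, and Itga2b, with 19 in T403A and 13 in WT, were neither. P2ry12 is also a microglial gene. Of 9 microglial markers, Sall1 had 0 counts in both libraries, Tmem119, Olfml3 and Cx3cr1 were lower in T403A and Gpr34 was higher, and the list summed to 272 CPM in T403A and 497 CPM in WT.

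Nt5e is carried by stromal, endothelial and lymphoid cells. The 11 stromal and endothelial genes summed to 7.42 CPM in T403A and 19.7 CPM in WT, with Pecam1, Kdr and Pdgfrb lower in T403A and Lepr at 0 counts in both libraries. The collagen genes Col1a1, with 19 counts in T403A and 17 in WT, and Col1a2, with 25 in T403A and 15 in WT, were neither, so the list did not go 1 way. The part of these cells in the Nt5e difference was not tested. Of the lymphocyte genes only Cd79b was measured, with 20 counts in T403A and 8 in WT, a ratio of 1.88 whose interval of 0.794 to 4.94 included 1. The list summed to 1.40 CPM in T403A and 0.733 CPM in WT, with Cd3d, Cd3e, Cd3g, Pax5, Ncr1 and Cd8a at 0 counts in both. The 12 neutrophil genes summed to 244 CPM in T403A and 310 CPM in WT, with Ly6g and Elane at 0 counts in both, Mmp8, S100a9 and Ltf higher in T403A and Csf3r and Camp lower. Csf3r alone gave 165 CPM of this sum in T403A and 280 CPM in WT, so the direction of the sum rests on Csf3r. The dendritic cell genes summed to 2.81 CPM in T403A and 4.27 CPM in WT, with Itgae higher and Xcr1 and Fscn1 lower in T403A, and mast cell, basophil and eosinophil genes to 2.76 CPM in T403A and 8.73 CPM in WT, with Kit higher and Ccr3 lower. Of the latter sum Ccr3 alone gave 0.802 CPM in T403A and 7.93 CPM in WT, so its direction rests on Ccr3. Erythroid genes summed to 0.351 CPM in T403A and 0.267 CPM in WT. Among the macrophage markers, Fcgr1 was 8.76-fold lower in T403A, Msr1 3.62-fold lower, Cd14 3.21-fold lower and Mrc1 5.12-fold higher, while Lyz2 was within 1.5-fold. The part of these marker differences in the values of the members was not tested.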

How the data were processed

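RNA from 2 macrophage libraries was analysed. Per the file headers, the authors deposited a table of read counts, in whole numbers, by Ensembl gene. The tools named in the submitters' processing notes are HISAT2, HTSeq 0.9.1, cutadapt 1.15 and DESeq 1.30.0, with build GRCm38. No source used here gives their roles or the strand setting. Columns were matched by title, and 21969 genes had a symbol.

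Counts were scaled by TMM on the whole table (edgeR 4.0.16, R 4.3.3). Ratios have Clopper-Pearson intervals and relative counts exact conditional ones (scipy 1.17.1). Log2 ratios used a prior count of 0.5. TPM used the deposited length, which equalled the union of GENCODE M21 exons for all 10 members. The scoring was tested on simulated data. Alternatives were total count, DESeq2 1.42.0 size factors, other priors, count minimums and thresholds. Promoters came from RefSeq (GRCm38.p6).

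The members and lists were chosen with earlier results of these data known. Named were the members, their coding neighbours and, in each of 15 lists, the genes past the rule (above 6, the 3 highest and 3 lowest by interval bound) and the most abundant one. Any other gene with a value, such as Nt5e, Bst1, Ada, Adora3 or Nlrp3, was added after its values were seen. Some genes of the lists and neighbourhoods are not reported here.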

Additional observations from a re-analysis of the deposited data

How the results depend on the processing

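Scaling by total count, in place of TMM, moved the median log2 ratio of all measured genes by 0.19. It gave 2290 genes higher and 890 lower, so that 72.0% of the calls were higher, against 1515 and 1214 with TMM (55.5%). Under this scaling the median of the members was 0.13, against -0.07 with TMM, and P2ry13 passed the rule (log2 ratio 0.60), so 3 members were higher. With a threshold of 2-fold, 808 genes were higher and 681 lower, and 1 member, Entpd1, was higher, since P2ry12 (log2 ratio 0.95) fell short. Adora2a, Adora2b and Entpd1 kept their direction and stayed past the rule under both other scalings and the 2-fold threshold. A prior count of 2 enters only the log2 ratios and cannot change a call. With it the log2 ratios were -3.70 for Adora2a, -3.18 for Adora2b and 1.07 for Entpd1. Requiring no interval, an alternative chosen after seeing the data, left 2 members higher and 2 lower, as did size factors from DESeq2. A count minimum of 1 or of 100 could not change the calls of the members, because each had more than 100 counts in at least 1 library. No paired analysis was possible because each genotype has 1 library, and for the same reason no library could be left out. In T403A, Adora2a and Adora2b rest on 14 and 15 counts and Nt5e on 2.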
